A study of Mus musculus with 36 samples.

Results

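The comparison is between prostate cancer cells that carried the F133V mutant of SPOP and cells that carried the empty vector, both grown opposite macrophages and both treated with olaparib. It takes in 6 of the 36 libraries of the series, 3 with F133V and 3 with vector, which were chosen by their labels for genotype, culture and treatment and not by any measured value. The cells are RM-1-BM, a mouse prostate cancer line, transduced with SPOP F133V or with the empty vector, and the labels give the vector cells as wild type. In both groups RAW264.7 mouse macrophages shared the medium across a transwell membrane, and only RNA of the cancer cells was counted in these libraries. The labels give neither a dose nor a time for olaparib, and do not say whether the transduced cells are clones or pools. The design text speaks of triplicates without naming separate cultures. The p-values rest on the spread between libraries within groups, pooled over all 24 cancer-cell libraries, and that spread may be technical. The same genotype comparison was available in 6 libraries of cocultured cells given the vehicle DMSO and in 6 libraries of cells grown alone with olaparib, and these served for the tests of difference.

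SPOP is the substrate adaptor of a Cullin-3 ubiquitin ligase: its MATH domain binds substrates, among them TRIM24 and steroid receptor coactivators, and hands them to the ligase for degradation. Missense mutations of the substrate-binding cleft, among them F133V, are a recurrent class in human prostate cancer and impair the binding of substrates. Olaparib inhibits PARP enzymes and traps them on DNA, which makes cells depend on homologous recombination to complete replication, and DNA that leaks into the cytosol can switch on interferon genes through cGAS and STING. Macrophages exchange cytokines and metabolites with tumour cells through shared medium.

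Each library held between 35534916 and 43062440 reads counted in genes. Values are CPM, the reads of a gene relative to its library's total after scaling by edgeR. A call means an adjusted p (Benjamini-Hochberg) under 0.05 in the quasi-likelihood test of edgeR. A log2 fold change is F133V minus vector throughout. The first principal component of the 6 libraries held 77.1% of their variance and separated the genotypes, and on it no library stood apart from its group. On the second, which held 5.95%, F133V replicate 3 (18.26) and vector replicate 1 (15.08) lay on the other side from their replicates. Spop itself stood at 114, 115 and 112 CPM in the F133V libraries and 119, 119 and 119 CPM in the vector libraries. Whether reads of a transduced copy are counted under Spop was not tested. The F133V libraries were slightly lower without overlap, but the difference of -0.06 ± 0.03 (SE; edgeR adjusted p = 0.0818) was not called in the fit of all cancer libraries. It was called in a fit of these 6 alone (-0.06) and with library size alone as the scaling (-0.11), and counts per gene cannot tell the mutant allele from the endogenous one. Spop was not higher with F133V, so these counts do not show the transduced copy, and the genotype rests on the labels. Of the prostate markers, the transcription factor gene Hoxb13 had 0 counts in all 6 libraries. Epithelial markers were mixed: the keratin genes Krt7 and Krt14 had 0 counts in all 6, whereas Krt18 stood at 114 ± 2.26 CPM with F133V and 63.9 ± 2.58 CPM with vector (SD, n = 3). Vim, a mesenchymal filament gene, stood at 1316 ± 5.8 CPM with F133V and 1148 ± 11.7 CPM with vector (SD, n = 3). Of 16 macrophage markers, 7 were too low to be tested, and Ptprc, Spi1 and Adgre1 had at most 5 counts in any library. The 16 together summed to 13.3 to 14.7 CPM in F133V and 22.1 to 22.9 CPM in vector libraries, against at least 12935 CPM in the macrophages of these cocultures. Only Cd53 (-1.78, edgeR adjusted p = 3.81e-18) and Cd14 (-0.70, edgeR adjusted p = 3.66e-08) were called among them.

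Measures of RNA composition moved with genotype. Mitochondrial genes took 1.9% to 1.98% of counts in F133V and 2.76% to 2.9% in vector libraries. Reads assigned to Gm26917, a locus that overlaps ribosomal RNA sequence, took 0.48% to 0.493% and 0.179% to 0.191%. Of 13 mitochondrial messengers, 11 were lower and none was higher, beside 31.2% of all genes lower and 28.8% higher. Among the lower was mt-Nd1 at -0.89 ± 0.07 (SE; edgeR adjusted p = 8.97e-15). The noncoding RNAs Rn7sk, a regulator of transcription elongation, and Rpph1, the RNA of RNase P, were higher at 1.86 (edgeR adjusted p = 1.48e-25) and 2.00 (edgeR adjusted p = 5.53e-20). With DMSO they were at 4.56 and 3.90. The part of RNA composition in the results below was not tested. A fit on nuclear protein-coding genes alone, added after the data were seen, called 8950 genes.

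Of 15962 genes tested, 9573 (60%) were called: 4593 (28.8%) were higher in F133V cells and 4980 (31.2%) were lower. In bulk samples, fewer cells of a kind and less RNA per cell cannot be told apart. At least 2-fold differences made up 1621 of these, 10.2% of the genes tested, and the median over all genes was close to 0. Among the 12 largest rises was Oaf, a gene for a secreted protein, with 13.1, 12.6 and 12.5 CPM in the F133V libraries and 0.103, 0.213 and 0.275 CPM in the vector libraries. The groups were far apart, and the difference was 6.0 ± 0.19 (SE; edgeR adjusted p = 1.63e-26). Col6a3, a chain of collagen VI, stood at 406, 404 and 407 CPM in the F133V libraries and 24.3, 26.2 and 25.1 CPM in the vector libraries, a difference of 4.01 ± 0.03 (SE; edgeR adjusted p = 1.61e-44). Krt15, a keratin of basal epithelial cells, had 79.4, 79.3 and 75.5 CPM against 4.03, 4.34 and 3.49 CPM, a difference of 4.30 ± 0.06 (SE; edgeR adjusted p = 1.56e-37). Slc2a5, which encodes the fructose transporter GLUT5, had 210.1, 206 and 208 CPM against 15.3, 15.3 and 16 CPM, a difference of 3.74 ± 0.04 (SE; edgeR adjusted p = 5.01e-43). None of these genes overlapped between groups, which the rule for choosing the 12 required. The developmental transcription factors Tbx1 (3.81) and Tfap2c (3.70), the vitamin A transporter Stra6 (3.90), the hypoxia-linked mitochondrial gene Ndufa4l2 (3.60), the acetyl-binding receptor Fibcd1 (3.38), the natriuretic peptide receptor Npr2 (2.99), the urokinase gene Plau (2.69) and the stress hormone Fgf21 (2.54) completed the 12.

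The 12 largest falls left each gene at a mean under 5 CPM in F133V cells. Tbc1d9, a Rab GTPase-activating protein gene, had 0.0505, 0.047 and 0.0241 CPM against 10.3, 9.84 and 9.73 CPM, and the difference was -7.83 ± 0.21 (SE; edgeR adjusted p = 1.02e-28). Marcks, a substrate of protein kinase C at the cell membrane, was the highest of the 12 in vector cells: it had 4.47, 4.11 and 3.74 CPM against 137, 135 and 139 CPM, a difference of -5.06 ± 0.07 (SE; edgeR adjusted p = 3.33e-38). The protein kinase C gene Prkcb itself stood at 1.57, 1.53 and 1.83 CPM against 38.9, 37.6 and 38.8 CPM, a difference of -4.54 ± 0.07 (SE; edgeR adjusted p = 8.24e-36). Krt8, the usual filament partner of Krt18 in simple epithelia, had 0.379, 0.446 and 0.314 CPM against 15.8, 16.4 and 15.1 CPM, a difference of -5.36 ± 0.12 (SE; edgeR adjusted p = 3.45e-31). Krt18 moved the other way, with 116, 112 and 112 CPM against 66.6, 63.6 and 61.5 CPM and a difference of 0.83 ± 0.03 (SE; edgeR adjusted p = 2.21e-22). The remaining falls were the calpain gene Capn6 (-6.99), Plekha6 (-6.57), the copine gene Cpne8 (-6.03), the annexin gene Anxa8 (-5.90), the dermatopontin gene Dpt (-5.14), the tenascin gene Tnr (-5.02), the neurofilament gene Nefl (-4.42) and the B-cell linker gene Blnk (-4.41). All 24 genes, chosen for their large differences, were called in the same direction with DMSO, beside 68.9% of all genes called with olaparib. With DMSO, for example, Tbc1d9 was at -7.16 and Marcks at -5.33.

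**Figure D1:**
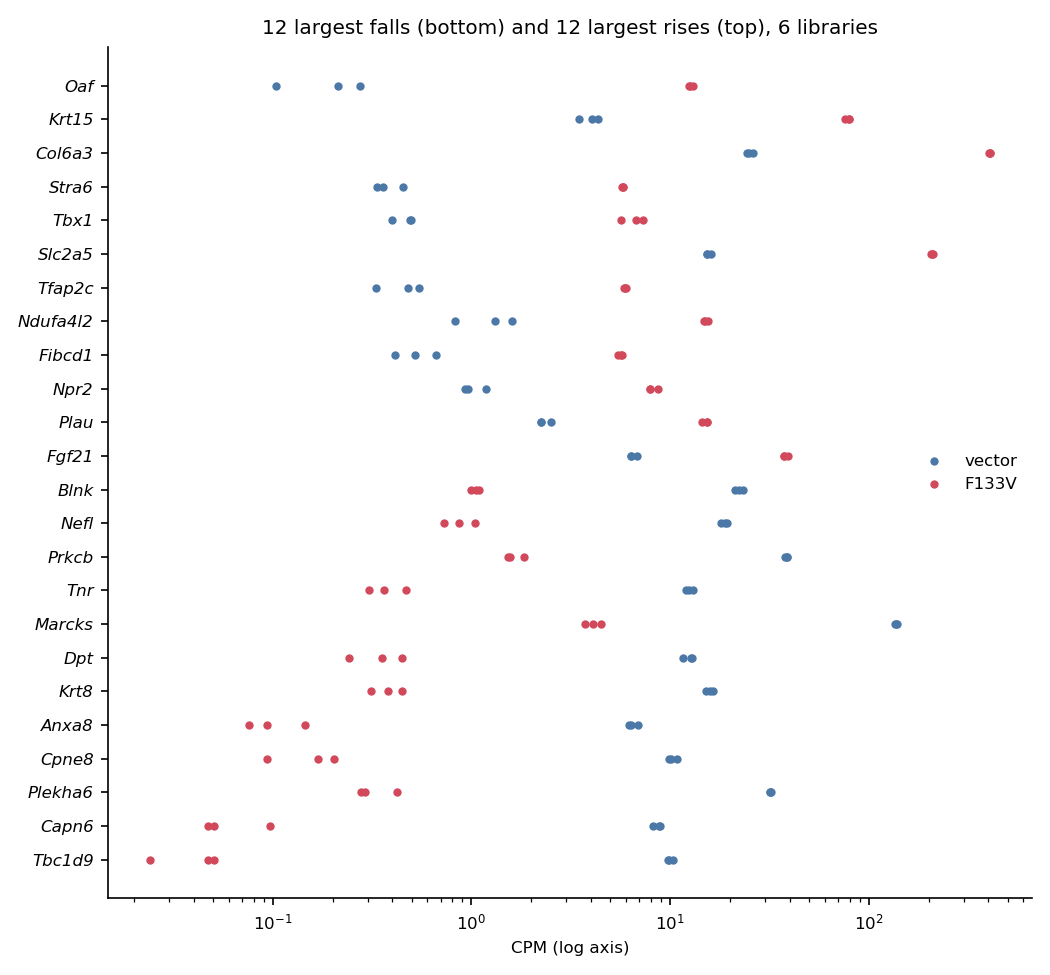
CPM on a log axis (x) of the 12 largest falls and 12 largest rises (y), with 1 point for each of the 3 F133V (red) and 3 vector (blue) libraries in coculture with olaparib. The groups do not overlap for any gene, which the rule for choosing them required, and Marcks and Col6a3 are the most abundant of each direction in their higher group.

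Chaperones of the endoplasmic reticulum, which fold secreted and membrane proteins and are induced when unfolded proteins accumulate, were higher in F133V cells as a whole set. All 22 members tested of 23 listed were called higher and none lower, against 28.8% of all genes called higher, with a median of 0.99. Hspa5, which encodes the lumenal HSP70 chaperone BiP, stood at 4862, 4859 and 4943 CPM in the F133V libraries and 1751, 1774 and 1742 CPM in the vector libraries. Every F133V library held more than any vector library by a wide margin, and the difference was 1.48 ± 0.02 (SE; edgeR adjusted p = 4.34e-37). Hsp90b1, the lumenal HSP90 chaperone, had 3690, 3689 and 3770 CPM against 1528, 1550 and 1549 CPM and differed by 1.27 ± 0.02 (SE; edgeR adjusted p = 5.21e-35). Of the disulfide isomerases, which form and shuffle the bonds of folding proteins, Pdia4 had 782, 767 and 772 CPM against 293, 289.7 and 288 CPM, a difference of 1.42 ± 0.02 (SE; edgeR adjusted p = 4.78e-37). Pdia6 had 1152, 1173 and 1160 CPM against 516, 522 and 511 CPM, a difference of 1.17 ± 0.02 (SE; edgeR adjusted p = 2.68e-34). In each of these 4 genes the lowest F133V library exceeded the highest vector library, but the 4 were named for their small adjusted p. Lectin chaperones of glycoproteins were part of the set: Calr differed by 0.75 ± 0.02 (SE; edgeR adjusted p = 2.75e-28) and Pdia3, its disulfide isomerase partner, by 1.02 ± 0.02 (SE; edgeR adjusted p = 6.01e-32). The 15 chaperones proper had a median of 1.17 and the 7 sensors and degradation factors one of 0.81.

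The set did not differ in this way with DMSO, where 11 members were higher and 8 lower, against 37.4% and 42% of all genes, at a median of 0.09. The interaction of genotype with olaparib, which tests the difference between the drug and vehicle settings, called 18 members as more positive with olaparib and none as less, against 35.4% of all genes called more positive. For Pdia4 that interaction was 1.07 ± 0.03 (SE; edgeR adjusted p = 3.25e-28), and for Calr, at -0.07 with DMSO, it was 0.82 ± 0.03 (SE; edgeR adjusted p = 1.09e-24). Hspa5 and Hsp90b1 were already higher with DMSO, at 0.68 and 0.58, and their interaction terms were 0.80 ± 0.03 (SE; edgeR adjusted p = 8.41e-24) and 0.69 ± 0.03 (SE; edgeR adjusted p = 7.21e-22). In cells grown alone with olaparib, all 22 were again higher, against 34.3% of all genes, at a median of 0.74, and 18 of the interactions with culture were called as more positive in coculture and 1 as less, against 21.8% and 25.1% of all genes. Hspa5 had a small term there, 0.08 ± 0.03 (SE; edgeR adjusted p = 0.0388).

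A sequence element recurs in promoters of the set. The ER stress response element is read by factors of the unfolded protein response together with NF-Y, and was searched as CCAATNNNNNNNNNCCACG on both strands, in 300-base windows from 250 bases before to 50 after the RefSeq start on build GRCm38.p6. The element begins with a CCAAT box, which alone was in 42.8% of windows. It occurred in 8 of the 19 chaperone genes with a window (42.1%) and in 17 of 10039 tested genes with one (0.169%), among which those 8 are counted. The 250 bases before the start, with the match in capitals, are given for Hspa5 (chr2:34771840-34772089, + strand, match at -65 to -47 from the start), the gene with the highest level of the set, and for Hsp90b1 (chr10:86705445-86705694, - strand), which holds 2 matches, at -212 to -194 and -107 to -89. A match describes the letters only and shows neither binding nor a cause.
Hspa5: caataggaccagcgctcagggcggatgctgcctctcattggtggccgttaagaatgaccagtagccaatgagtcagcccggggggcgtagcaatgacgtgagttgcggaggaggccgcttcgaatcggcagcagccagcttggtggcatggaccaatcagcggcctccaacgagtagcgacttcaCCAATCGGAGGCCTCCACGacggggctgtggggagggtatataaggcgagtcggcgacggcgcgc
Hsp90b1: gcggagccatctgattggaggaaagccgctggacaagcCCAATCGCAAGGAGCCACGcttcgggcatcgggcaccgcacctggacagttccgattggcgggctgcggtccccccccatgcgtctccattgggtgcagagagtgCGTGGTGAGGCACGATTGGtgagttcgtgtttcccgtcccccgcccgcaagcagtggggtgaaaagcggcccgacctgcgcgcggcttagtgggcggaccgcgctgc

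The integrated stress response, in which phosphorylated eIF2α slows translation while ATF4 raises amino acid transport and synthesis genes, was mostly higher. Of 33 members 28 were higher and 3 lower, with a median of 0.37, beside 28.8% of all genes higher and 31.2% lower, and the 20 amino acid genes were all among the higher ones. With DMSO 23 of the 33 were higher and 9 lower (median 0.51), beside 37.4% and 42% of all genes. In cells grown alone with olaparib 28 were higher and 3 lower (median 0.31), beside 34.3% and 33.2%. Slc7a11, the cystine importer, stood at 666, 651 and 657 CPM in the F133V libraries and 218, 223 and 222 CPM in the vector libraries, and its partner chain Slc3a2 at 1328, 1323 and 1297 CPM against 479, 469 and 465 CPM. The groups lay apart in both genes, by 1.57 ± 0.03 (SE; edgeR adjusted p = 2.41e-34) and by 1.48 ± 0.02 (SE; edgeR adjusted p = 2.53e-37). Ddit3, which encodes the transcription factor CHOP, had 651, 659 and 648 CPM against 341, 330.3 and 336 CPM, a difference of 0.96 ± 0.02 (SE; edgeR adjusted p = 1.09e-31). Ppp1r15a, the GADD34 subunit that dephosphorylates eIF2α, had 299, 297 and 287 CPM against 125, 123 and 127 CPM, a difference of 1.24 ± 0.03 (SE; edgeR adjusted p = 6.7e-32). The eIF2α kinases Eif2ak3, which encodes the ER sensor PERK, and Eif2ak4, which encodes GCN2, were lower at -0.25 (edgeR adjusted p = 6.26e-08) and -0.60 (edgeR adjusted p = 3.47e-15), as was Sesn2 at -0.07 (edgeR adjusted p = 0.0109), a call lost without F133V replicate 3 (-0.04) and with no filter on low counts (-0.07). Ddit4 (0.02, edgeR adjusted p = 0.639) and the heme-regulated kinase gene Eif2ak1 (-0.06, edgeR adjusted p = 0.162) were not called. Ddit3 had the opposite sign with DMSO, at -0.35, and its interaction was 1.31 ± 0.03 (SE; edgeR adjusted p = 7.69e-31), while Slc7a11 and Slc3a2 were at 2.72 and 1.94 with DMSO, with interactions of -1.15 ± 0.04 (SE; edgeR adjusted p = 2.85e-25) and -0.46 ± 0.03 (SE; edgeR adjusted p = 1.63e-16).

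**Figure D2:**
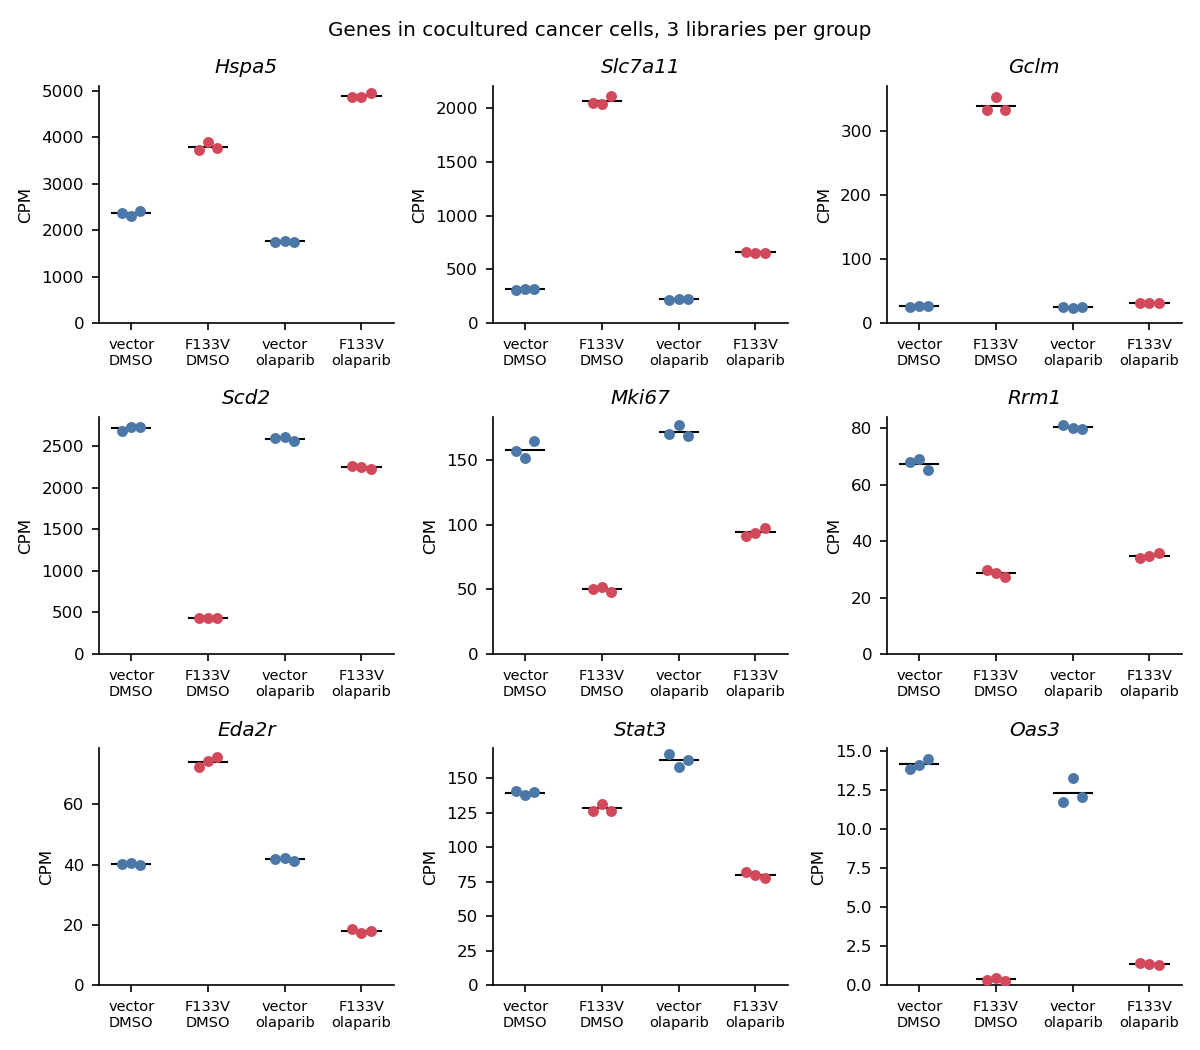
CPM (y, linear from 0) of 9 genes in the 4 groups of cocultured cancer cells (x), with 1 point per library and a bar at the mean of 3. Hspa5 is highest in the F133V libraries with olaparib, the gap between genotypes in Gclm and Scd2 is narrow with olaparib and wide with DMSO, and Eda2r lies above vector with DMSO and below it with olaparib.

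Antioxidant genes of the NRF2 pathway, which KEAP1 holds in check, were split. Of 37 members 17 were higher and 14 lower, with a median of 0.07, beside 28.8% of all genes higher and 31.2% lower. With DMSO 26 were higher and 10 lower at a median of 0.70, beside 37.4% and 42% of all genes. Gclc, the catalytic subunit of glutathione synthesis, had 111, 112 and 118 CPM against 58, 54.9 and 53.4 CPM, a difference of 1.03 ± 0.03 (SE; edgeR adjusted p = 1.24e-27). Its modifier subunit gene Gclm had 31.7, 31.2 and 30.7 CPM against 25.7, 24.1 and 25.5 CPM, a difference of 0.31 ± 0.04 (SE; edgeR adjusted p = 1.12e-08), although with DMSO the means were 339 CPM with F133V and 26.3 CPM with vector. Txnrd1, a thioredoxin reductase, differed by 0.60 ± 0.02 (SE; edgeR adjusted p = 7.1e-25) with olaparib and by 2.88 with DMSO. Akr1b3, an aldose reductase, was lower at -0.58 ± 0.03 (SE; edgeR adjusted p = 4.38e-20) with olaparib and higher by 2.81 with DMSO. The interaction terms of these genes were among the 10 with the smallest p: -3.38 ± 0.05 (SE; edgeR adjusted p = 1.19e-35) for Gclm, -2.28 ± 0.03 (SE; edgeR adjusted p = 1.28e-38) for Txnrd1 and -3.39 ± 0.04 (SE; edgeR adjusted p = 2.12e-40) for Akr1b3. Nqo1, a quinone reductase and a common readout of the pathway, did not follow them, since it was higher with olaparib by 1.15 ± 0.03 (SE; edgeR adjusted p = 7.62e-29) and was at -0.20 with DMSO, an interaction of 1.34 ± 0.04 (SE; edgeR adjusted p = 9.74e-26). Prdx1 (-0.42, edgeR adjusted p = 1.7e-17), Idh1 (-0.70, edgeR adjusted p = 6.09e-22), Ephx1 (-2.50, edgeR adjusted p = 8.19e-35) and Akr1b8 (-0.69, edgeR adjusted p = 3.43e-17) were lower. The factor gene Nfe2l2 was lower by a small margin (-0.16, edgeR adjusted p = 4.66e-07), Keap1 was not called (-0.02, edgeR adjusted p = 0.6), and Sqstm1, the autophagy receptor that binds KEAP1, was higher (0.63, edgeR adjusted p = 1.02e-26).

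Cytosolic heat shock genes likewise had no common direction, with 7 of 15 higher and 7 lower, beside 28.8% of all genes higher and 31.2% lower, while with DMSO 14 were higher and 0 lower at a median of 1.03, beside 37.4% and 42% of all genes. All 15 interaction terms were called as less positive with olaparib, against 32% of all genes. Hsph1, an HSP110 chaperone, had 238, 242 and 248 CPM against 316, 320.3 and 310.3 CPM, a difference of -0.38 ± 0.02 (SE; edgeR adjusted p = 2.43e-18), against 1.43 with DMSO, and its interaction was -1.81 ± 0.03 (SE; edgeR adjusted p = 5.67e-35). Hsp90ab1 (-0.26, edgeR adjusted p = 8.97e-15), Hspa8 (-0.20, edgeR adjusted p = 5.13e-10) and Dnaja1 (-0.11, edgeR adjusted p = 0.00118), chaperones of unstressed cells, were lower, and Hsp90aa1 (0.35, edgeR adjusted p = 1.84e-17), Hspb1 (0.37, edgeR adjusted p = 1.32e-07) and Hsf1 (0.31, edgeR adjusted p = 3.98e-08), the heat shock factor, were higher. Hspa1b was higher too (1.12, edgeR adjusted p = 1.4e-21), but reads of its near-identical neighbour Hspa1a cannot be told apart from its own with certainty. Bag3 was not called (-0.01, edgeR adjusted p = 0.834).

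Genes of sterol and fatty acid synthesis, which SREBP factors induce when membranes lack sterol, were mostly lower. Of 41 members 32 were lower and 6 higher, with a median of -0.47, beside 28.8% of all genes higher and 31.2% lower. Elovl6, a fatty acid elongase, had 62, 62.2 and 63 CPM against 144, 148 and 154 CPM, a difference of -1.25 ± 0.03 (SE; edgeR adjusted p = 1.43e-29). Abca1, which exports cholesterol and is a target of LXR rather than of SREBP, had 1.77, 1.62 and 1.98 CPM against 19.5, 19.3 and 19 CPM, the widest difference of the list at -3.42 ± 0.08 (SE; edgeR adjusted p = 1.95e-30). Higher members were Fdft1 (0.23, edgeR adjusted p = 2.22e-09) and Sqle (0.27, edgeR adjusted p = 2.11e-12), the squalene steps, together with Insig2 (0.35, edgeR adjusted p = 2.24e-11) and Nr1h2 (0.13, edgeR adjusted p = 0.000347), and neither Srebf2 (0.02, edgeR adjusted p = 0.403) nor Fads1 (0.04, edgeR adjusted p = 0.149) nor Ebp (0.00, edgeR adjusted p = 0.953) was called.

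The deficit was smaller than in the other settings. The median was -1.40 with DMSO and -1.57 in cells grown alone with olaparib, and 32 interactions with the drug and 35 with culture were called toward less deficit, against 7 and 1 the other way. Over all genes 35.4% of interactions with the drug and 21.8% of those with culture were more positive. Scd2, a stearoyl-CoA desaturase, led both interaction tests. It stood at 2258, 2246 and 2227 CPM in the F133V libraries and 2593, 2611 and 2555 CPM in the vector libraries, a difference of -0.21 ± 0.02 (SE; edgeR adjusted p = 3.22e-12), while with DMSO the means were 433 CPM with F133V and 2714 CPM with vector. Its interaction was 2.44 ± 0.03 (SE; edgeR adjusted p = 1.8e-40) with the drug and 2.73 ± 0.03 (SE; edgeR adjusted p = 3.05e-42) with culture. Scd1 (1.84 ± 0.03, edgeR adjusted p = 2.95e-35) and the lanosterol demethylase gene Cyp51 (1.77 ± 0.04, edgeR adjusted p = 4.66e-32) were among the 10 smallest p in the test with culture.

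DNA replication genes, which E2F factors switch on as cells enter S phase, were lower in F133V cells. Of 39 members 36 were lower and 1 higher, against 31.2% of all genes called lower, with a median of -0.68. Rrm1, the large subunit of ribonucleotide reductase, had 34, 34.8 and 35.9 CPM against 81.3, 80.2 and 79.9 CPM, a difference of -1.21 ± 0.04 (SE; edgeR adjusted p = 7.98e-27). Uhrf1, which recruits the maintenance DNA methyltransferase, had 22.9, 24 and 22.8 CPM against 45.3, 47.6 and 47.9 CPM, a difference of -1.01 ± 0.04 (SE; edgeR adjusted p = 3.02e-22). Of the MCM helicase, Mcm3 had 55, 54.5 and 55.8 CPM against 87.4, 85.7 and 85.8 CPM, a difference of -0.65 ± 0.03 (SE; edgeR adjusted p = 1.27e-21). Mcm6 had 60.8, 56.4 and 58.4 CPM against 101, 102 and 97.1 CPM, a difference of -0.77 ± 0.03 (SE; edgeR adjusted p = 7.72e-22). In all 4 genes every F133V library was below every vector library, but the 4 were named for their small adjusted p. Mcm2, another subunit of the same helicase, was the member called higher (0.07, edgeR adjusted p = 0.0154), a call lost without F133V replicate 2 (0.07) or vector replicate 3 (0.04) and with library size alone as the scaling (0.02). Fen1 (-0.05, edgeR adjusted p = 0.326) and Rb1 (-0.08, edgeR adjusted p = 0.304), which restrains E2F, were not called. With DMSO the median was much the same, -0.66, and interactions went both ways, 11 more positive and 19 less, beside 35.4% and 32% of all genes.

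E2F-type letters, TTTCCCGC or TTTGGCGC on either strand, occurred in the windows of 12 of 31 genes of this list (38.7%). They occurred in 339 of 10039 tested genes (3.38%), among which those 12 are counted. The list was drawn up as replication and E2F genes and holds, for example, E2f2 and E2f7. Its larger share is therefore no independent result, and a match here too shows neither binding nor a cause. The 250 bases before the start of Mcm6 (chr1:128359706-128359955, - strand) are shown because they hold 2 matches, in capitals at -110 to -103 and -47 to -40 from the start. Mcm3 also had 2 matches in its window, but after the start, at 20 to 27 and 39 to 46.
Mcm6: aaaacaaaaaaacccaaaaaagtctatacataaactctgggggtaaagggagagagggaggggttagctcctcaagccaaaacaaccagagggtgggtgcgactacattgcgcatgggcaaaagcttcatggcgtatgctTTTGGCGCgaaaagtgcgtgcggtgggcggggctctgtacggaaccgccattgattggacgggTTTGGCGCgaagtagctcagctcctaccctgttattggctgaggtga

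Mitosis genes pointed the same way, with 30 of 35 lower and 1 higher at a median of -0.46, beside 31.2% of all genes lower. Mki67, the proliferation marker Ki-67, had 91.5, 94 and 97.5 CPM against 170.2, 177 and 168 CPM, a difference of -0.87 ± 0.03 (SE; edgeR adjusted p = 2.01e-23). The checkpoint kinase gene Bub1b (-0.93, edgeR adjusted p = 2.59e-19), the kinetochore motor gene Cenpe (-0.69, edgeR adjusted p = 5.93e-19) and the topoisomerase gene Top2a (-0.47, edgeR adjusted p = 5.25e-19) were lower, Anln, which encodes anillin of the cleavage furrow, was higher (0.42, edgeR adjusted p = 6.67e-16), and Aurka (-0.09), Cdc25c (0.03) and Cenpa (-0.04) were not called. The deficit was larger with DMSO (median -0.95) and larger in cells alone with olaparib (-1.31), and 29 and 33 of the 35 interactions with drug and culture were called toward less deficit, beside 35.4% and 21.8% of all genes.

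Homologous recombination and the Fanconi pathway, on which cells rely when PARP is inhibited, had 29 of 42 genes lower and 4 higher, with a median of -0.34, beside 28.8% of all genes higher and 31.2% lower. Brca2, a mediator of strand exchange, had 12.4, 13.1 and 11.9 CPM against 21.9, 25.4 and 22.4 CPM, a difference of -0.90 ± 0.06 (SE; edgeR adjusted p = 9.24e-16). Brca1 had 13.4, 15 and 14.1 CPM against 20.9, 20.8 and 21.4 CPM, a difference of -0.57 ± 0.05 (SE; edgeR adjusted p = 6.36e-12). The F133V libraries lay below all vector libraries for both genes. Rad54l, a DNA translocase, was the furthest apart of those named, at -1.61 ± 0.09 (SE; edgeR adjusted p = 3.41e-18), and Fanca (-0.94, edgeR adjusted p = 2.05e-15) and Topbp1 (-0.40, edgeR adjusted p = 1.65e-15) were lower as well. Fancd2, the protein that the Fanconi core ubiquitinates, was higher at 0.73 (edgeR adjusted p = 5.63e-14), as were Rif1 (0.42, edgeR adjusted p = 3.6e-15), Rbbp8 (0.12, edgeR adjusted p = 0.0236) and Rad54b (1.00, edgeR adjusted p = 0.00923), the last with 0.531, 0.47 and 0.555 CPM against 0.129, 0.372 and 0.275 CPM. The call of Rbbp8 was lost without vector replicate 1, vector replicate 3 or F133V replicate 3 (0.12, 0.11 and 0.08), and that of Rad54b without vector replicate 1 (0.67). Neither checkpoint kinase gene Atr (-0.02, edgeR adjusted p = 0.634) nor Chek2 (-0.05, edgeR adjusted p = 0.541) was called, nor was Fancl (0.10, edgeR adjusted p = 0.252). With DMSO Brca2 was lower by more, at -1.79, and its interaction was 0.89 ± 0.10 (SE; edgeR adjusted p = 3.99e-10). Replication, mitosis and recombination genes are transcribed mostly in cycling cells, so the share of cells in S, G2 and M phases and the RNA per cell cannot be told apart.

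For the main targets of olaparib no difference was called. Parp1 had 141, 144 and 142 CPM against 151, 149 and 144 CPM, a difference of -0.05 ± 0.03 (SE; edgeR adjusted p = 0.0726), and Parp2 had 11.5, 12.7 and 13 CPM against 12, 12.4 and 11.4 CPM, a difference of 0.06 ± 0.07 (SE; edgeR adjusted p = 0.485). In Parp2 the groups overlapped, and in Parp1 they met at 144 CPM. Parp1 was called, at -0.05, in a fit of these 6 libraries alone, at -0.10 with library size alone as the scaling, and at -0.07 without vector replicate 3. Of 24 genes of the PARP list 7 were higher and 10 lower, beside 28.8% of all genes higher and 31.2% lower. Parp3, a DNA-dependent relative, was lower (-0.47, edgeR adjusted p = 8.78e-17). Parp4 (0.74, edgeR adjusted p = 5.89e-23), Parp8 (0.73, edgeR adjusted p = 1.7e-23) and the tankyrases Tnks (0.35, edgeR adjusted p = 1.29e-14) and Tnks2 (0.67, edgeR adjusted p = 5.33e-26) were higher. Abcb1b, one of the P-glycoprotein genes that export olaparib, had 6.72, 7.35 and 6.78 CPM against 19.6, 21.6 and 20.1 CPM, a difference of -1.55 ± 0.06 (SE; edgeR adjusted p = 6.56e-23). Slfn9, a member of the Schlafen family, was lower as well (-1.80, edgeR adjusted p = 1.15e-18). The ADP-ribose hydrolase gene Adprhl2 was lower at -0.50 (edgeR adjusted p = 5.22e-11).

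Most p53 targets were lower in this coculture with olaparib, and most were higher in both other settings. Of 28 genes 18 were lower and 9 higher (median -0.30), beside 28.8% of all genes higher and 31.2% lower. With DMSO 8 were lower and 17 higher (median 0.30), beside 42% and 37.4% of all genes. In cells grown alone with olaparib 5 were lower and 20 higher (median 0.31), beside 33.2% and 34.3%. The interaction with the drug was less positive for 22 genes and more positive for 2, beside 32% and 35.4% of all genes, and that with culture was less positive for 23 and more positive for 1, beside 25.1% and 21.8%. Cdkn1a, the cell cycle inhibitor p21, had 263, 257 and 259 CPM against 360.5, 352 and 359.5 CPM, a difference of -0.46 ± 0.02 (SE; edgeR adjusted p = 3.25e-19), while with DMSO it was at 0.26, an interaction of -0.72 ± 0.03 (SE; edgeR adjusted p = 9.76e-21). Eda2r, a TNF receptor family gene, had 18.5, 17.2 and 18.1 CPM against 41.8, 42.2 and 41.3 CPM, a difference of -1.22 ± 0.04 (SE; edgeR adjusted p = 1.83e-25), against 0.88 with DMSO, and its interaction was -2.10 ± 0.05 (SE; edgeR adjusted p = 4.25e-29). Zmat3 (-0.60, edgeR adjusted p = 1.03e-22) also had the opposite sign with DMSO (0.32), whereas Ccng1 (-1.07, edgeR adjusted p = 5.07e-27) and Btg2 (-2.62, edgeR adjusted p = 4.87e-26) were lower in both. Mdm4, an inhibitor of p53, was higher (1.01, edgeR adjusted p = 1.36e-28), with Bax (0.28, edgeR adjusted p = 3.78e-12), Gadd45a (0.72, edgeR adjusted p = 1.04e-19) and Plk2 (0.46, edgeR adjusted p = 2.31e-15). Ddb2 was not called (0.04, edgeR adjusted p = 0.858).

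**Figure D3:**
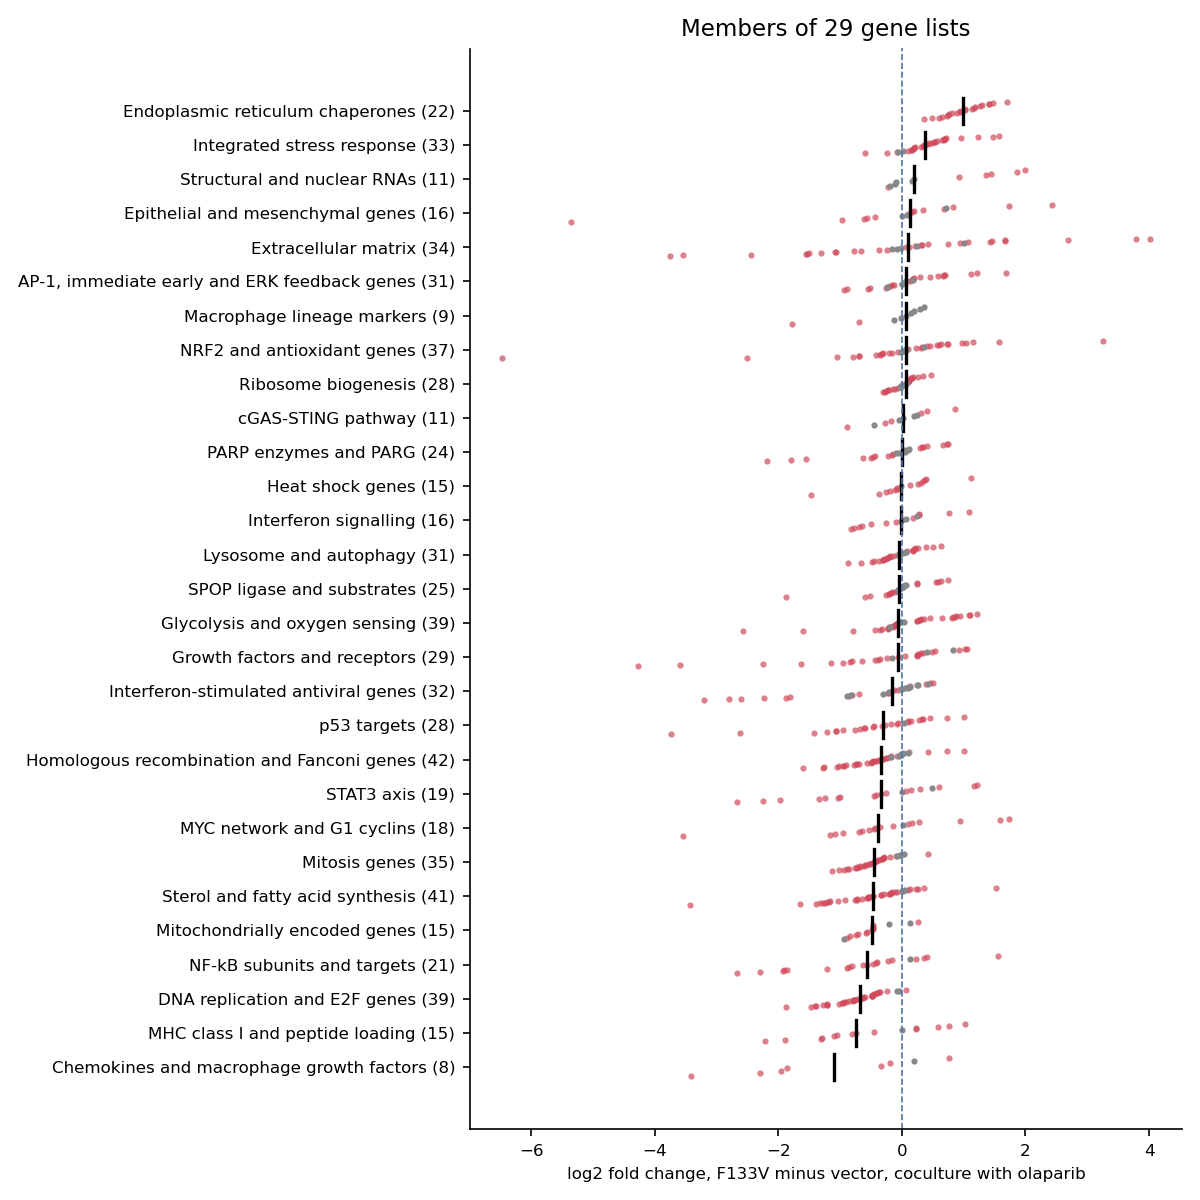
Log2 fold change (x) of each tested member of 29 gene lists (y, with the number tested), F133V minus vector in coculture with olaparib. Red points were called, grey points were not, black bars are list medians and the dashed line is the median of all genes; the ER chaperones lie wholly to the right, and replication and mitosis genes almost wholly to the left.

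Growth control genes were mixed. Myc had 80.5, 77 and 77.7 CPM against 27, 24.9 and 26.2 CPM, a difference of 1.59 ± 0.05 (SE; edgeR adjusted p = 6.76e-27), with no overlap. Its antagonist gene Mxd4 was lower (-1.08, edgeR adjusted p = 3.65e-24), and Mxi1, another antagonist and a target of HIF-1, was higher (0.94, edgeR adjusted p = 1.39e-31). The G1 cyclin gene Ccnd1 had 332, 334 and 331 CPM against 448, 446 and 448 CPM, a difference of -0.43 ± 0.02 (SE; edgeR adjusted p = 1.5e-19), and was at -2.34 with DMSO, with an interaction of 1.91 ± 0.03 (SE; edgeR adjusted p = 1.91e-34). Cdk6 was lower (-0.54, edgeR adjusted p = 2.12e-20) and Cdk4 was not called (0.02, edgeR adjusted p = 0.488). Ribosome biogenesis genes, many of which MYC induces, had 13 of 28 higher and 8 lower, with a median of 0.06, beside 28.8% of all genes higher and 31.2% lower. With library size alone as the scaling 8 were higher. With DMSO 26 were higher and 2 lower at a median of 0.62, beside 37.4% and 42% of all genes, and the interaction with the drug was less positive for 26 and more for 1, beside 32% and 35.4%. Gnl3 (0.46, edgeR adjusted p = 5.3e-17) and Rrp12 (0.34, edgeR adjusted p = 3.51e-11) were higher, and the RNA polymerase I subunits Polr1b (-0.22, edgeR adjusted p = 1.09e-05) and Polr1c (-0.31, edgeR adjusted p = 9.95e-10) were lower.

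AP-1 and early response genes were 15 higher and 9 lower of 31, beside 28.8% of all genes higher and 31.2% lower. The FOS-related subunits Fosl1 (1.22, edgeR adjusted p = 4.31e-30) and Fosl2 (0.67, edgeR adjusted p = 4.86e-24) were higher, and the JUN subunits Jun (-0.23, edgeR adjusted p = 2.3e-08) and Jund (-0.55, edgeR adjusted p = 3.44e-16) were lower. Dusp5, a nuclear ERK phosphatase, had 50.8, 52.7 and 49.8 CPM against 15.5, 15.8 and 16.2 CPM, a difference of 1.69 ± 0.05 (SE; edgeR adjusted p = 1.85e-28), and was at -0.17 with DMSO, an interaction of 1.86 ± 0.07 (SE; edgeR adjusted p = 4.92e-24). Egr3 was higher (1.12, edgeR adjusted p = 1.79e-20) and was at -1.30 with DMSO, an interaction of 2.43 ± 0.09 (SE; edgeR adjusted p = 6.65e-25), and Egr1 was lower (-0.52, edgeR adjusted p = 8.46e-07). Dusp6 (0.07), Etv5 (0.04) and Nr4a1 (-0.24) were not called.

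Glycolysis and oxygen sensing genes divided by role. Of 20 transporters and glycolytic enzymes 3 were higher and 13 lower, whereas 11 of 12 other hypoxia targets were higher, with a median of 0.62, beside 28.8% of all genes higher and 31.2% lower. Of all 39 genes of the list, the interaction with the drug was more positive for 29 and less for 5, beside 35.4% and 32% of all genes, and that with culture more positive for 33 and less for 1, beside 21.8% and 25.1%. The enzymes Eno1 (-0.43, edgeR adjusted p = 1.02e-17), Pgk1 (-0.36, edgeR adjusted p = 5.17e-16) and Aldoc (-0.80, edgeR adjusted p = 4.4e-17) and the carbonic anhydrase gene Car9 (-1.61, edgeR adjusted p = 6.07e-18) were lower. Slc2a3, the high-affinity glucose transporter GLUT3, had 391, 384 and 383 CPM against 165, 163 and 169 CPM, a difference of 1.22 ± 0.03 (SE; edgeR adjusted p = 1.5e-31), and its interaction with culture was 2.72 ± 0.04 (SE; edgeR adjusted p = 5.02e-37), and the genotype difference in cells grown alone was -1.50. Ero1l, a thiol oxidase of the endoplasmic reticulum that hypoxia induces, was higher at 0.87 ± 0.02 (SE; edgeR adjusted p = 1.47e-29), as was Ndrg1 at 0.80 ± 0.02 (SE; edgeR adjusted p = 2.44e-30). With DMSO they were at -0.05 and 0.01, and the interactions were 0.92 ± 0.03 (SE; edgeR adjusted p = 1.6e-25) and 0.79 ± 0.03 (SE; edgeR adjusted p = 2.94e-25).

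Genes for the sensing of cytosolic DNA had no common direction. Of 11 tested 3 were higher, 3 lower and 5 not called, beside 28.8% of all genes higher and 31.2% lower. Of the 5 sensor and adaptor genes 3 were lower and 0 higher (median -0.27). The sensor gene Cgas, listed as Mb21d1, had 4.37, 3.88 and 4.39 CPM against 4.37, 4.04 and 4.59 CPM and was not called (-0.04, edgeR adjusted p = 0.74). Its adaptor gene Sting1, listed as Tmem173, had 41.9, 40.9 and 41.2 CPM against 46.4, 48.5 and 45.1 CPM, a difference of -0.18 ± 0.04 (SE; edgeR adjusted p = 0.000232). The kinase genes Tbk1 (0.31, edgeR adjusted p = 4.05e-10) and Ikbke (0.86, edgeR adjusted p = 1.97e-13) were higher, and Irf3, the factor they activate, was not called (0.01, edgeR adjusted p = 0.824). Ifnb1 had 0 counts in all 6 libraries, and Cxcl10 and Il6 stood at no more than 0.247 and 0.103 CPM, so none was tested.

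Interferon signalling genes had 5 higher and 7 lower of 16, beside 28.8% of all genes higher and 31.2% lower. With DMSO 12 were lower and 3 higher, beside 42% and 37.4%, and the interaction with the drug was more positive for 13 and less for 1, beside 35.4% and 32%. Stat2, a subunit of the factor that answers type I interferon, had 36, 37 and 37.8 CPM against 52.3, 52.1 and 52.2 CPM, a difference of -0.50 ± 0.04 (SE; edgeR adjusted p = 6.46e-15). Both receptor genes for interferon gamma were lower, Ifngr1 at -0.69 (edgeR adjusted p = 1.64e-12) and Ifngr2 at -0.77 (edgeR adjusted p = 5.17e-20), whereas Ifnar1 was higher (0.18, edgeR adjusted p = 4.65e-06) and Irf7 was not called (0.24, edgeR adjusted p = 0.0969). Of the interferon-stimulated antiviral genes 14 of 32 were lower, 4 higher and 14 not called, beside 31.2% of all genes called lower. Oas3, a synthase that activates RNase L, had 1.39, 1.32 and 1.28 CPM against 11.7, 13.3 and 12 CPM, a difference of -3.21 ± 0.12 (SE; edgeR adjusted p = 6.84e-24). The interferon-inducible GTPases Gbp2 (-2.23, edgeR adjusted p = 2.69e-14), Gbp7 (-1.88, edgeR adjusted p = 4.81e-12) and Irgm1 (-0.81, edgeR adjusted p = 1.04e-16) were lower, and Igtp, of the same family, was higher (0.50, edgeR adjusted p = 0.00274). Isg15, a ubiquitin-like modifier, had 7.13, 6.27 and 6.74 CPM against 3.08, 3.4 and 2.97 CPM, a difference of 1.09 ± 0.11 (SE; edgeR adjusted p = 9.96e-11), and Bst2, which tethers virions, was higher at 0.39 (edgeR adjusted p = 8.61e-08). With DMSO 29 of the 32 were lower and none higher, beside 42% and 37.4% of all genes, at a median of -1.51 against -0.17 here, and 25 interactions were called, all more positive with olaparib, beside 35.4% of all genes. Ifitm1, an antiviral membrane protein gene, was among the 10 smallest p of that test: it had 122, 125 and 124 CPM against 246, 242 and 244 CPM, a difference of -0.98 ± 0.02 (SE; edgeR adjusted p = 2.49e-30), and the interaction was 2.14 ± 0.04 (SE; edgeR adjusted p = 9.37e-34).

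Of the MHC class I genes, the 4 tested heavy and light chain genes were all lower, and the others went both ways. Of 15 genes 9 were lower and 5 higher, with a median of -0.75, beside 28.8% of all genes higher and 31.2% lower. With DMSO 12 were lower and 2 higher (median -0.74), beside 42% and 37.4% of all genes. In cells grown alone with olaparib 8 were higher and 4 lower, beside 34.3% and 33.2%, and the interaction with culture was less positive for 10 and more positive for 2, beside 25.1% and 21.8%. B2m, which encodes the invariant light chain, had 195, 198 and 202 CPM against 339, 351 and 347 CPM, a difference of -0.80 ± 0.03 (SE; edgeR adjusted p = 1.57e-22), and the heavy chain gene H2-D1 had 87.5, 86.9 and 81 CPM against 144, 143 and 142 CPM, a difference of -0.75 ± 0.03 (SE; edgeR adjusted p = 7.5e-23). Reads of class I heavy chains can be shared among near-identical genes. Tapbp, which encodes tapasin of the loading complex, had 77.8, 73.9 and 74 CPM against 165, 158 and 159 CPM, a difference of -1.09 ± 0.03 (SE; edgeR adjusted p = 3.39e-28), and was at -0.14 with DMSO, an interaction of -0.95 ± 0.04 (SE; edgeR adjusted p = 1.69e-21). The proteasome activators Psme1 (0.59, edgeR adjusted p = 3.29e-18) and Psme2 (0.22, edgeR adjusted p = 3.75e-07) were higher, and Calr and Pdia3 of the loading complex were those described with the chaperones. Cd274, which encodes the checkpoint ligand PD-L1 and whose protein SPOP can target, had 13.2, 14.2 and 14.3 CPM against 7.54, 9.15 and 8.33 CPM, a difference of 0.74 ± 0.08 (SE; edgeR adjusted p = 1.76e-10).

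NF-kB subunits and targets were 16 lower and 4 higher of 21, with a median of -0.57, beside 28.8% of all genes higher and 31.2% lower. The interaction with culture was less positive for 15 and more positive for 2, beside 25.1% and 21.8%. The subunit genes Nfkb1 (-0.40, edgeR adjusted p = 6.87e-14), Nfkb2 (-0.17, edgeR adjusted p = 9.1e-06) and Relb (-0.63, edgeR adjusted p = 2.31e-14) were lower and Rela was higher (0.41, edgeR adjusted p = 2.66e-12). Bcl3, a nuclear IkB protein, had 3.77, 3.05 and 2.61 CPM against 19.9, 20.4 and 19.6 CPM, a difference of -2.67 ± 0.09 (SE; edgeR adjusted p = 1.28e-25). Sod2 (-0.81, edgeR adjusted p = 3.22e-23) and Ier3 (-0.90, edgeR adjusted p = 7.1e-25) were lower, and Ptgs2, the inducible cyclooxygenase gene, was higher, with 1059, 1049 and 1064 CPM against 354, 363 and 362 CPM and a difference of 1.56 ± 0.03 (SE; edgeR adjusted p = 2.77e-35). Vcam1 was also higher (0.36, edgeR adjusted p = 5.52e-13).

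Of the signals to macrophages, most of the chemokine genes that could be tested were lower, whereas the growth factor gene Csf1 was higher. Of 21 chemokine and macrophage growth factor genes listed, 8 were tested. Of these 6 were lower and 1 higher, with a median of -1.10, beside 31.2% of all genes lower and 28.8% higher. Of 6 chemokines 5 were lower and 0 higher, and of 2 growth factors 1 was higher and 1 lower. With DMSO 6 of the 8 were lower and 1 higher (median -1.76), beside 42% and 37.4% of all genes. In cells grown alone with olaparib 5 were lower and 1 higher (median -1.5), beside 33.2% and 34.3%. Ccl2, which recruits monocytes, had 2.48, 2.47 and 1.79 CPM against 10.3, 11.6 and 11.2 CPM, a difference of -2.30 ± 0.11 (SE; edgeR adjusted p = 2.14e-20), and its neighbour Ccl7 had 2.75, 2.12 and 2.85 CPM against 10.7, 10.1 and 9.4 CPM, a difference of -1.97 ± 0.11 (SE; edgeR adjusted p = 2.51e-18). Cxcl1 (-1.86, edgeR adjusted p = 8.17e-12) and Cx3cl1 (-0.20, edgeR adjusted p = 1.12e-05) were lower. Ccl5, at 0.152, 0.376 and 0.169 CPM against 0.233, 0.239 and 0.137 CPM, was not called (0.20, edgeR adjusted p = 0.771). Csf1, the growth factor on which macrophages depend, had 196, 195 and 198 CPM against 120.1, 113 and 115 CPM, a difference of 0.76 ± 0.03 (SE; edgeR adjusted p = 4.88e-25). In cells grown alone with olaparib it was at 2.35, and the interaction with culture was -1.59 ± 0.04 (SE; edgeR adjusted p = 1.32e-29).

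Along the STAT3 axis, by which IL-6 family cytokines act, 11 of 19 genes were lower and 6 higher, beside 28.8% of all genes higher and 31.2% lower. Stat3 had 81.8, 79.8 and 77.5 CPM in the F133V libraries and 167, 158 and 163 CPM in the vector libraries. The groups did not overlap, the difference was -1.03 ± 0.03 (SE; edgeR adjusted p = 2.5e-27), and with DMSO it was -0.12, with an interaction of -0.91 ± 0.04 (SE; edgeR adjusted p = 5.98e-21). The oncostatin M receptor gene Osmr had 2.58, 2.75 and 3.31 CPM against 14.7, 12.9 and 13.6 CPM, a difference of -2.25 ± 0.09 (SE; edgeR adjusted p = 1.02e-22), and Cebpd had 13.8, 13.6 and 13.3 CPM against 51.8, 54.9 and 53.4 CPM, a difference of -1.98 ± 0.05 (SE; edgeR adjusted p = 1.3e-29). The shared receptor chain Il6st (0.29, edgeR adjusted p = 7.14e-14), Cebpb (0.60, edgeR adjusted p = 1.39e-11) and Mcl1 (0.15, edgeR adjusted p = 1.31e-06) were higher, and Il11 (0.48) and Junb (0.00) were not called.

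Extracellular matrix genes had 16 of 34 higher and 13 lower, beside 28.8% of all genes higher and 31.2% lower. Besides Col6a3, the higher genes included Sparc, a matricellular protein gene, with 248, 252 and 252 CPM against 76.9, 80.1 and 78.6 CPM and a difference of 1.68 ± 0.03 (SE; edgeR adjusted p = 4.88e-35), the laminin gene Lamb1 (1.46, edgeR adjusted p = 6.41e-37) and the proteoglycan gene Bgn (1.43, edgeR adjusted p = 5.37e-35). Thbs1, which encodes thrombospondin, had 2.63, 2.07 and 2.51 CPM against 32.7, 32.8 and 32.3 CPM, a difference of -3.76 ± 0.08 (SE; edgeR adjusted p = 1.86e-31). Col6a1, whose chain assembles with that of Col6a3, was lower at -1.51 ± 0.03 (SE; edgeR adjusted p = 5.84e-31), and so were Dcn (-1.53, edgeR adjusted p = 6.97e-32) and Col3a1 (-1.07, edgeR adjusted p = 1.58e-31). Col3a1 was at -3.12 with DMSO and -3.04 in cells grown alone, and its interactions were 2.04 ± 0.04 (SE; edgeR adjusted p = 1.01e-33) and 1.97 ± 0.03 (SE; edgeR adjusted p = 6.08e-34). Col1a1, a main collagen of fibroblasts, had 0.126, 0.0235 and 0.0241 CPM against 0.0517, 0 and 0.0275 CPM and was not called.

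Among epithelial and mesenchymal genes, Snai2 (0.69, edgeR adjusted p = 3.5e-16) and Acta2 (2.43, edgeR adjusted p = 3.27e-20) were higher, Snai1 (-0.56, edgeR adjusted p = 1.27e-08), Twist2 (-0.62, edgeR adjusted p = 1.09e-18) and the tight junction gene Ocln (-0.97, edgeR adjusted p = 2.2e-10) were lower, and Twist1 (0.07) and Zeb2 (-0.01) were not called. Growth factor genes were 12 higher and 14 lower of 29, beside 28.8% of all genes higher and 31.2% lower. Igfbp5, which binds insulin-like growth factors, had 1.82, 1.43 and 1.71 CPM against 30.3, 32.7 and 33.3 CPM, a difference of -4.28 ± 0.09 (SE; edgeR adjusted p = 3.17e-32), and Igfbp6 had 164, 163 and 157 CPM against 77.5, 78.9 and 78 CPM, a difference of 1.05 ± 0.03 (SE; edgeR adjusted p = 2.45e-28). The EGF receptor ligands split, with Areg higher (0.92, edgeR adjusted p = 9.1e-19), Tgfa lower (-2.25, edgeR adjusted p = 6.23e-20) and Ereg not called (-0.15, edgeR adjusted p = 0.167). The receptor gene Axl was higher (0.53, edgeR adjusted p = 1.41e-23), Tgfbr2 lower (-0.84, edgeR adjusted p = 2.42e-20), Vegfa slightly higher (0.24, edgeR adjusted p = 1.12e-12), and Gdf15 was lower at -1.14 (edgeR adjusted p = 3.5e-23) and at 0.95 with DMSO, an interaction of -2.09 ± 0.06 (SE; edgeR adjusted p = 9.97e-28).

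RNA of the SPOP ligase and of genes whose proteins it binds followed no single direction: 6 of 25 were higher, 10 lower and 9 not called, beside 28.8% of all genes higher and 31.2% lower. The scaffold gene Cul3 was lower (-0.26, edgeR adjusted p = 5.44e-08), and Spopl, the paralog of Spop, was not called (0.05, edgeR adjusted p = 0.494). For the substrate gene Trim24 (-0.05, edgeR adjusted p = 0.22) no difference was called, Brd2 was lower (-0.17, edgeR adjusted p = 9.32e-09), Ccne1 was lower (-1.88, edgeR adjusted p = 8.09e-21) and Gli2 was higher (0.58, edgeR adjusted p = 6.75e-14). SPOP acts on protein, which RNA does not report. Lysosome and autophagy genes were 11 higher and 15 lower of 31, beside 28.8% of all genes higher and 31.2% lower, among them Mitf (0.51, edgeR adjusted p = 6.85e-13) higher and Atp6v0a1 (-0.66, edgeR adjusted p = 3.94e-21) and Npc2 (-0.48, edgeR adjusted p = 1.28e-20) lower.

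Set beside the vehicle, the genotype difference with olaparib was narrower and partly of another kind. The median size of the difference over all genes was 0.284 on the log2 scale with olaparib and 0.655 with DMSO. The 6600 genes called in the same direction in both, 2960 higher and 3640 lower, were 68.9% of the calls with olaparib and 52% of the calls with DMSO, where 79.5% of all genes were called. For 4097 of them the interaction test called a smaller difference with olaparib, for 646 a larger one, and for 1857 it made no call. In 1874 genes, 19.6% of the olaparib calls, the direction was opposite, but only 47 of these were at least 2-fold apart in both. The 2 comparisons share no library. Some measures of RNA composition differed more between genotypes with DMSO than with olaparib. With DMSO, Gm26917 took 3.47% to 3.65% of counts in F133V and 0.249% to 0.269% in vector libraries. Small structural RNAs together stood at 395 to 422 and 64.3 to 68.3 CPM, against 96.9 to 102 and 56.7 to 58.9 CPM with olaparib. The part of RNA composition in the narrower difference and in the interactions was not tested. The interaction of genotype with olaparib was called for 10751 genes (67.4%), and that of genotype with culture for 7491 (46.9%).

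**Figure D4:**
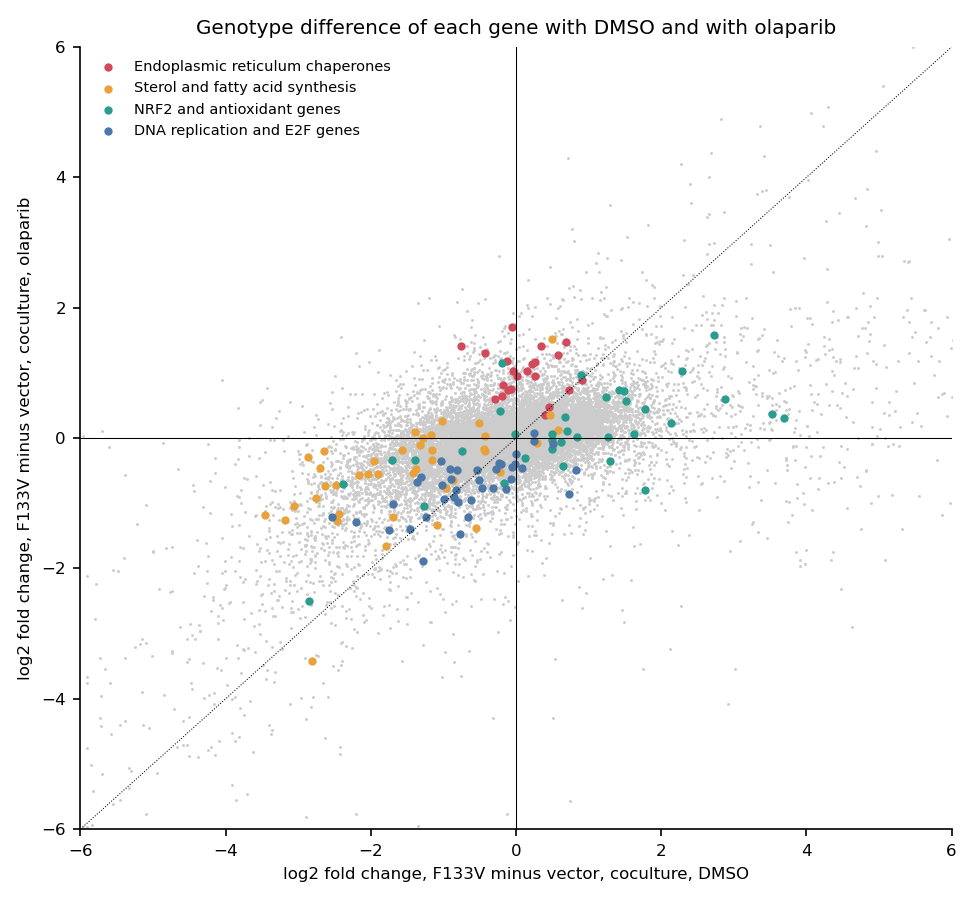
Log2 fold change of F133V minus vector in coculture with DMSO (x) and with olaparib (y), 1 point per gene, with 4 lists in colour, a dotted line at equality and 103 genes outside the axes. ER chaperones lie above 0 and most lie above the line, and most sterol genes lie between the line and the horizontal axis.

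Other genes led the interaction tests. Ankrd44 was higher here (0.45 ± 0.02, edgeR adjusted p = 4.11e-19) and lower with DMSO (-1.96) and alone (-1.29), with interactions of 2.42 ± 0.04 (SE; edgeR adjusted p = 1.96e-35) and 1.75 ± 0.04 (SE; edgeR adjusted p = 5.72e-32). The angiotensin-converting enzyme gene Ace had 77.4, 78.2 and 77 CPM against 49.5, 48 and 47.1 CPM, a difference of 0.69 ± 0.03 (SE; edgeR adjusted p = 2.59e-20), was at -2.46 in cells grown alone, and had an interaction with culture of 3.14 ± 0.05 (SE; edgeR adjusted p = 1.19e-35). Arrb1, which encodes a beta-arrestin, had the same pattern (0.38 here, -2.04 alone). Ly6c1, a GPI-anchored surface protein gene, had the reverse, with 32.4, 33.5 and 32.9 CPM against 101, 103 and 107 CPM, a difference of -1.65 ± 0.04 (SE; edgeR adjusted p = 6.97e-32), and 0.88 in cells grown alone, an interaction of -2.53 ± 0.05 (SE; edgeR adjusted p = 2.19e-32). Angptl2 was lower by less with olaparib (-0.35) than with DMSO (-2.48), with an interaction of 2.13 ± 0.04 (SE; edgeR adjusted p = 9.37e-34).

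**Figure D5:**
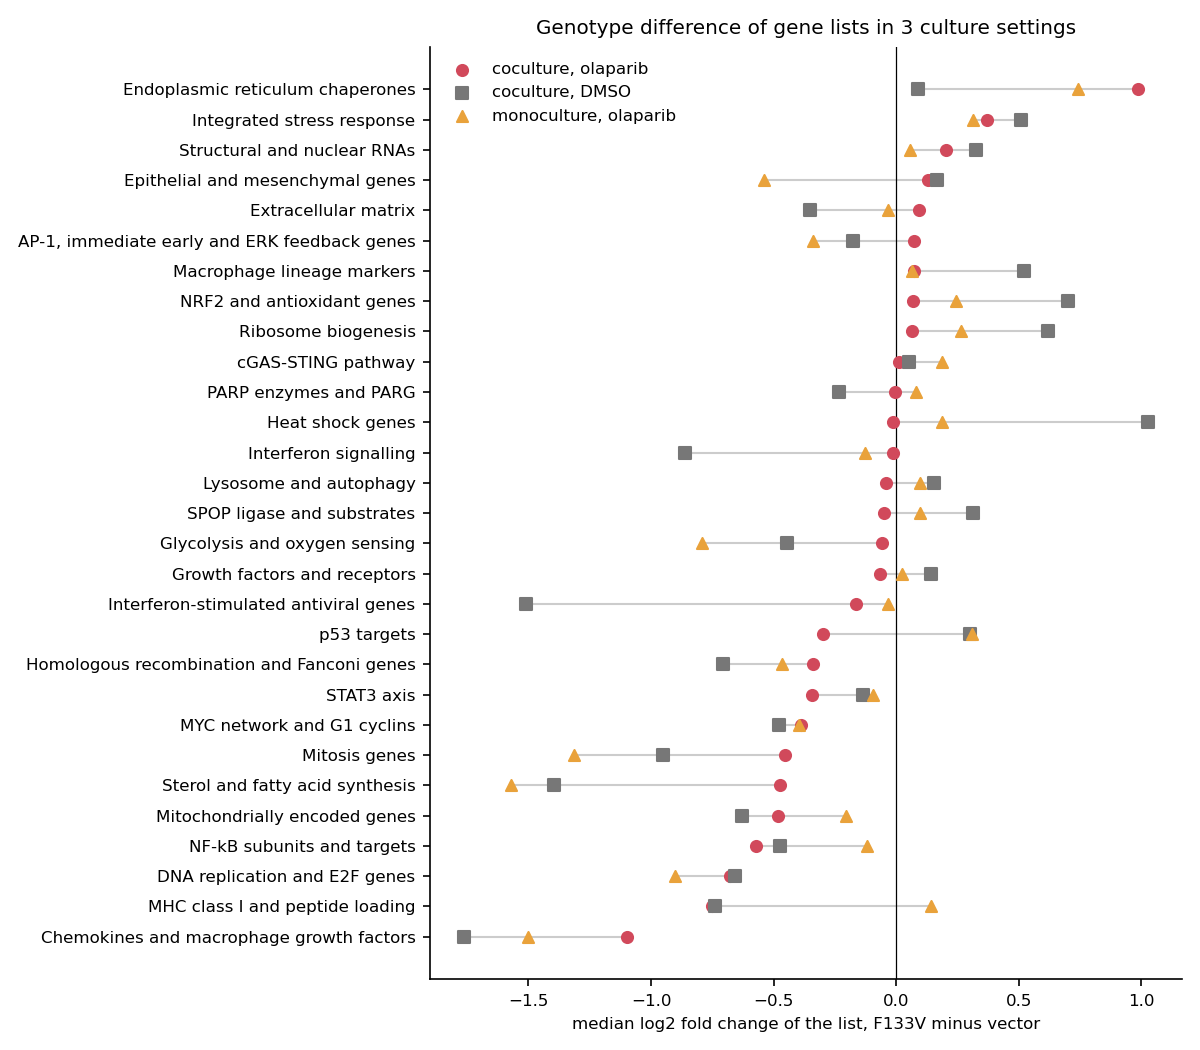
Median log2 fold change of F133V minus vector (x) for 29 gene lists (y) in coculture with olaparib (red circles), coculture with DMSO (grey squares) and monoculture with olaparib (orange triangles). Medians of the ER chaperones are 0.99, 0.09 and 0.74, and those of sterol genes -0.47, -1.40 and -1.57.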

How the data were processed

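RNA-seq of total RNA from 36 libraries was deposited as 1 table per library, and the 24 cancer-cell libraries were used in the fits. The authors deposited raw read counts per gene, whole numbers for 46078 Ensembl genes. Per the submitters' processing notes the tools were STAR, TopHat, HTSeq and DESeq2 and the build GRCm38, with no versions and no order. A strand setting for the counting and a role for each tool are not given there. In the 6 libraries of the main comparison 18% to 19.9% of reads fell in no gene, 5.48% to 6.31% were not unique and 1.25% to 1.32% were ambiguous, and these rows were left out of library sizes. Total counts of 35534916 to 43062440 per library limit the precision of low genes. No pair of libraries was identical among 36 pairs within groups, and counts of replicates of the main groups differed by more than sampling noise (chi-square per degree of freedom 1.73 to 8.04). In coculture with DMSO, F133V replicate 1 differed more from replicates 2 and 3 (18.04 and 11.76) than those did from each other (2.804). Without that library the interaction with olaparib was called for 10502 genes.

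Counts were fitted with edgeR 4.0.16 (R 4.3.3, limma 3.58.1): filterByExpr with a minimum count of 10, TMM scaling, and glmQLFit and glmQLFTest with 1 mean for each of 8 cancer-cell groups (vector or F133V, monoculture or coculture, DMSO or olaparib), which share 1 estimate of the spread on 16 residual degrees of freedom. The p-values were adjusted by Benjamini-Hochberg over 15962 genes, with calls at 0.05. The SE was taken from the F statistic. Interaction terms were the genotype difference in coculture with olaparib minus that in coculture with DMSO, or minus that in monoculture with olaparib. The procedure was run on simulated counts with 50 genes changed at each of 1.2-, 1.5-, 2- and 3-fold, in 1 group only. At 1.2-fold it called 80% in the main comparison, 56% in the interaction with olaparib and 64% in that with culture. In the same order 2.14%, 3.53% and 5.17% of calls were false. The changed genes were drawn from those with a mean above 1 CPM, so the share called among lower genes was not tested. Far fewer genes were changed than were called in the data, so scaling under such broad change was not tested. Alternatives were DESeq2 1.42.0, RLE scaling, library totals without further scaling, no filter on low counts, a fit of the compared groups by themselves, the replicate number as a block, leaving out each library, and, added after the data were seen, nuclear protein-coding genes only.

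The comparison, the 29 gene lists, the motifs and the named-gene rule were chosen with earlier results of these data known, so lists are described by counts and medians beside all genes, with no set test. Named were up to 4 genes per list and direction by smallest adjusted p and up to 3 not called, some genes of the SPOP, interferon and PARP pathways regardless of outcome, the 12 largest rises and falls (called, non-overlapping libraries, 5 CPM or more on average in the group with more), and the 10 smallest p of each interaction among genes at 5 CPM or more. Of 240 genes named and tested, 88 have exons that overlap another gene in GENCODE M21, so part of their reads may be uncertain: Abcb1b, Ace, Ankrd44, Atr, Bax, Bcl3, Brca2, Brd2, Capn6, Car9, Ccnd1, Cd274, Cdc25c, Cdk4, Cdk6, Cdkn1a, Cebpb, Cebpd, Col3a1, Cyp51, Ddb2, Ddit3, Dnaja1, Dusp5, Eif2ak1, Eif2ak3, Elovl6, Ephx1, Ereg, Fanca, Fancd2, Fancl, Fdft1, Fen1, Fosl1, Gadd45a, Gbp2, Gbp7, Gclm, Gnl3, Hsp90b1, Hspa8, Igtp, Ikbke, Irf3, Irf7, Jun, Junb, Jund, Keap1, Krt8, Mb21d1, Mxd4, Mxi1, Ndrg1, Ndufa4l2, Nefl, Nfkb2, Npr2, Parp1, Parp3, Parp4, Pdia3, Pdia4, Pdia6, Plekha6, Ppp1r15a, Psme1, Rad54b, Rad54l, Rb1, Rbbp8, Rpph1, Scd2, Spopl, Sqstm1, Stat3, Tapbp, Tbc1d9, Tgfa, Thbs1, Tnks, Tnr, Top2a, Twist2, Vcam1, Zeb2, mt-Nd1. Promoter sequences are from RefSeq on GRCm38.p6, and 10039 tested genes had one. Python 3.11.15 and matplotlib 3.10.9 served for summaries and plots. Results for some genes that the rule would name are not reported here.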

Additional observations from a re-analysis of the deposited data

Results flagged for a closer look

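Each result named here was singled out because the genotype difference itself differed between 2 settings by a test of an interaction term in edgeR. Between olaparib and DMSO, in coculture, the interaction was called for 10751 genes. Among the 10 with the smallest adjusted p, the difference was more positive with olaparib for Scd2 (2.44), Ankrd44 (2.42), Ifitm1 (2.14), Angptl2 (2.13), Col3a1 (2.04) and Ccnd1 (1.91). It was less positive for Akr1b3 (-3.39), Gclm (-3.38), Txnrd1 (-2.28) and Hsph1 (-1.81).

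Between coculture and monoculture, both with olaparib, the interaction was called for 7491 genes. Among those with the smallest adjusted p, the difference was more positive in coculture for Ace (3.14), Scd2 (2.73), Slc2a3 (2.72), Arrb1 (2.42), Col3a1 (1.97), Scd1 (1.84), Cyp51 (1.77) and Ankrd44 (1.75). It was less positive for Ly6c1 (-2.53). Scd2, Col3a1 and Ankrd44 are named for both, and both interactions use the same 6 libraries of coculture with olaparib.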

How the results depend on the processing

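The number of genes called between F133V and vector cells in coculture with olaparib was 9573, and between 8950 and 9815 under the alternatives, all within 1.5 times. Library size alone moved the median over all genes by less than 0.1 and gave 3919 higher and 5582 lower. The interaction with olaparib was called for 9603 to 10904 genes, that with culture for 7005 to 7803, and 6265 to 6655 genes were called the same way with DMSO and olaparib. Leaving out 1 library at a time gave 9056 to 9174 calls. Of the 29 list medians, 21 moved by more than the spread between replicates with library size alone, by at most 0.0492, and 13 when a library was left out, by at most 0.326 (structural RNAs, whose median moved by 0.362 in a fit of the compared groups alone). The sign changed under at least 1 alternative for 6 lists, all with a median near 0 (extracellular matrix, heat shock, interferon signalling, macrophage markers, PARP and cGAS-STING). Without vector replicate 1, 2 recombination genes were higher in place of 4. No value of the genes named changed its sign past the threshold. Of the 240 genes named, library size alone lost the call of 2 (Mcm2 and Rbbp8) and gained 8, and DESeq2 lost none and gained 1. Spop, Parp1, Trim24, Aurka, Cenpa, Eif2ak1, Fen1, Fads1, Dusp6, Irf7, Twist1 and Nr4a1, not called in the fit reported, were called under at least 1 alternative. Replicates with the same number did not visibly deviate together between the groups (correlations -0.00438, 0.0201 and -0.0104). This cannot exclude that they share a culture or day, which the labels do not say. With the replicate block 9584 genes were called, 4607 higher and 4977 lower, against 10751 and 7537 for the interactions and 6605 for the shared direction, and no call of a named gene changed. Genes under about 1 CPM, such as Rad54b, Ccl5 and Il11, are limited by depth.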
